A study of Drosophila melanogaster with 24 samples.

Results

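The measurement described here is the change, from 0 to 24 h, of the ratio between dmyc and cd2 RNA in wing discs of Drosophila melanogaster, the epithelial sacs of the larva that form the adult wing. It was taken from the 6 arrays titled 24 h and the 6 titled 0 h, 12 of the 24 arrays in the series. Each two-colour array set RNA of tub>dmyc>Gal4 discs, named as competitor in the labels, against RNA of tub>cd2>Gal4 control discs of the same time. In both genotypes the tubulin promoter, active in all cells, drives a cassette placed before Gal4, which holds dmyc (Drosophila Myc) in one and cd2 in the other. All larvae were in the third instar, and discs of both genotypes received a heat shock of 15 min at 37 °C, which the labels give as the means of forming clones. The control therefore carried the heat shock, Gal4 and the clones as well, and no array compares 1 time directly with another. Replicates 1 to 3 of each time carried dmyc RNA in Cy5 and replicates 4 to 6 carried it in Cy3. Nothing in the labels says how many larvae were pooled or that replicates came from separate animals. The p-values below therefore cover the spread among arrays, part or all of which may be technical. All 24 arrays entered the fit, so the arrays of 12 and 48 h also shape that spread.

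In cell competition, cells with more Myc grow at the expense of neighbours with less, and the neighbours are removed by apoptosis. Myc is a transcription factor known in flies for raising ribosome assembly, translation and cell growth. The products of fwe, a membrane protein gene, azot, a calcium-binding protein gene, and SPARC, a secreted matrix protein gene, are known from Drosophila as marks or modifiers of the losing state. A dmyc disc can contain winner and loser cells together, whereas the cassette of the control discs holds no dmyc. RNA was taken from discs with all their cells, so fewer cells of a type and less RNA per cell cannot be told apart in these values.

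Values are log2 ratios, where 0 means equal signal of the 2 genotypes and a positive value likely means more signal from dmyc discs. The direction was read from the sequence of the genotype names in the titles. Were the ratios written the other way round, all rises and falls below would swap. The transcript of Myc itself is not analysed here, so the transgene gave no check of the labels. Ratios carry no absolute level, so whether the tissue expressed the defining genes of a wing disc could not be checked either. The standard deviation across features was 0.18 to 0.29 on each array, and array number limits the precision.

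The 12 arrays formed 6 pairs of opposite dye that resembled each other more than the rest. At 0 h the pairs were replicates 1 and 4, 2 and 5, and 3 and 6, with correlations across features of 0.56, 0.65 and 0.77. At 24 h they were replicates 1 and 5, 2 and 6, and 3 and 4, with correlations of 0.90, 0.73 and 0.58. The labels do not say whether the arrays of a pair share RNA extracts, and if they do, each time holds 3 samples instead of 6. The mean of 0 h replicates 3 and 6 correlated at -0.63 with the mean of 24 h replicates 3 and 4, and 0 h replicates 2 and 5 correlated at -0.44 with 24 h replicates 1 and 5. Single arrays of 0 and 24 h in the same dye orientation correlated between -0.52 and 0.27. The labels state the dyes of every array and opposite profiles at 2 times are possible, so no array was turned, but counts without these arrays, and with their sign reversed, are given below.

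**Figure D1:**
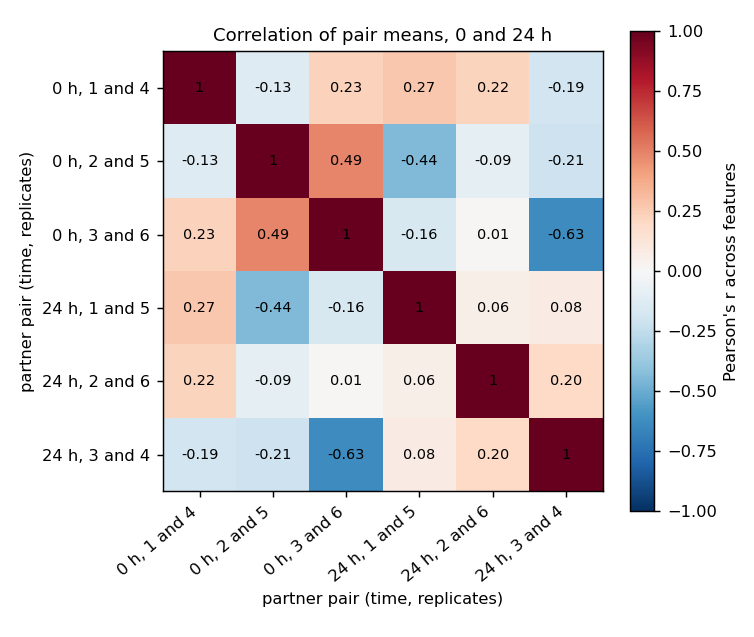
Pearson's r across all features between the mean log2 ratios of the 6 dye-swap pairs, with the time and the replicates of each pair on both axes. The darkest blue cells off the diagonal join 0 h replicates 3 and 6 with 24 h replicates 3 and 4 (-0.63) and 0 h replicates 2 and 5 with 24 h replicates 1 and 5 (-0.44).

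Of 10622 features tested, 2160 (20.3%) had a ratio that differed between 0 and 24 h at an adjusted p under 0.05 in limma. The ratio rose for 1299 features (12.2%) and fell for 861 (8.11%). The risers went on the median from a mean of -0.19 at 0 h to 0.14 at 24 h, and 1261 of the 1299 were lower in dmyc discs at 0 h and higher in dmyc discs at 24 h by their means. The fallers went from 0.11 to -0.13, and 814 of the 861 crossed 0 in the opposite direction. These features were chosen by the difference between the same 2 means, on arrays centred on 0, which in itself favours crossings. Whether either mean differed from 0 was not tested, and crossings were not counted over all features. Among the risers 856 stood farther from 0 at 0 h than at 24 h, and among the fallers 395 did. Changes were small for most of them: the median was 0.33 for risers and -0.25 for fallers, and 27 risers and 3 fallers changed by 1 or more on the log2 scale. The 6 arrays of 24 h all lay above those of 0 h for 516 features (4.86% of those tested) and all below for 262 (2.47%). The median change over all features was 0.002.

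The count depended on how the pairs were treated. When pairs entered limma as a random block, 657 features rose (6.19%) and 263 fell (2.48%). After averaging the arrays of each pair 0 features passed in limma, against 2326 at an unadjusted p under 0.05. Without 0 h replicates 3 and 6 the count was 739 (484 rose, 255 fell), and without 24 h replicates 3 and 4 it was 1230 (784 and 446). It was 1067 without 0 h replicates 2 and 5 and 1400 without 0 h replicate 3 alone. With the sign of 0 h replicates 3 and 6 reversed 0 features passed in limma (1118 at an unadjusted p under 0.05), and with that of 24 h replicates 3 and 4 reversed 12 did. On the 6 arrays with dmyc in Cy5 alone 0 passed (1941 at an unadjusted p under 0.05), and on those with dmyc in Cy3 alone 2 did. The word rose or fell below refers to the fit over all arrays. For every gene list below, the shares to set beside its counts are the 12.2% of all features that rose and 8.11% that fell. With the random block for pairs they are 6.19% and 2.48%.

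**Figure D2:**
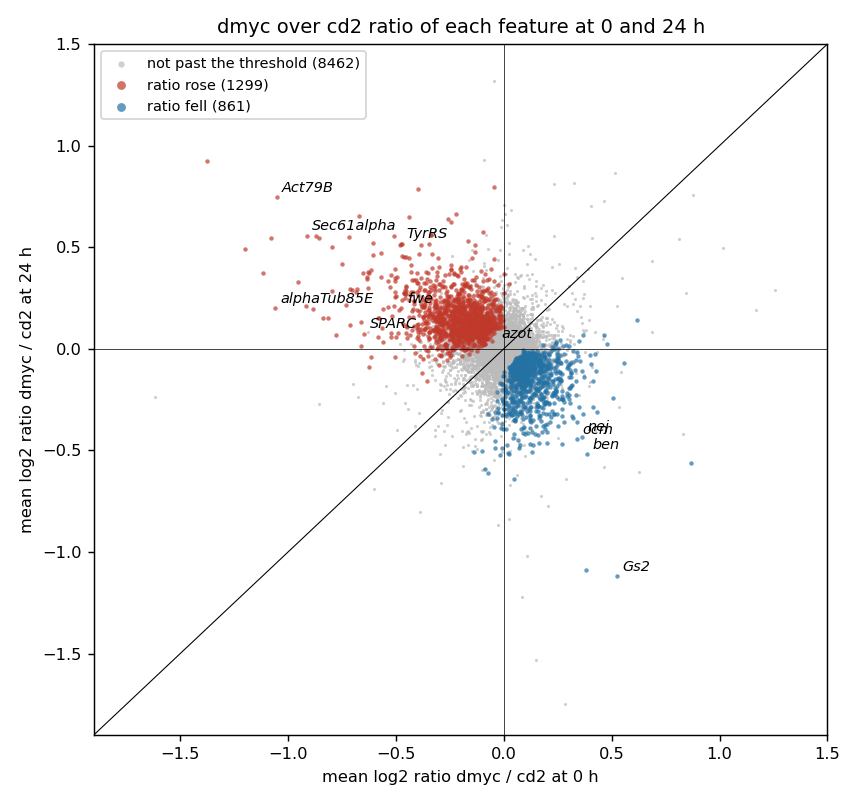
Mean log2 ratio of dmyc over cd2 at 0 h (horizontal axis) and at 24 h (vertical axis), 1 point per feature, with the 1299 risers in red, the 861 fallers in blue and the diagonal of no change; 1 feature lies outside the axes. Most risers lie in the upper left, below 0 at 0 h and above 0 at 24 h, and most fallers in the lower right.

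Genes of the cytoskeleton were among the largest rises of named genes whose arrays of the 2 times did not overlap. Act79B, an actin gene of muscle, ranged at 0 h from -2.10 to -0.40 with a median of -0.84, and at 24 h from 0.22 to 1.13 with a median of 0.76. All 6 arrays were below 0 at the first time and all 6 above at the second. The change was 1.80 ± 0.32 (SE, n = 6 arrays a time; adjusted p 0.000861), a 3.48-fold shift of the ratio. Act87E, another muscle actin gene, went from a median of -0.82 (-1.59 to -0.29) to 0.53 (0.09 to 0.95) and rose by 1.40 ± 0.25 (adjusted p 0.000976). Tubulins form microtubules, and betaTub56D changed from a median of -1.06 (-2.28 to -0.51) to 0.22 (-0.08 to 1.02). Its rise was 1.49 ± 0.36 (adjusted p 0.00603). For alphaTub85E the median was -1.14 (-1.73 to -0.32) at 0 h and 0.10 (0.01 to 0.55) at 24 h, a rise of 1.26 ± 0.25 (adjusted p 0.00172). In each of these genes the lowest array was replicate 3 of 0 h, and the highest of 24 h was replicate 4. Without 0 h replicates 3 and 6, betaTub56D was 1.23 and no longer passed (adjusted p 0.0538). Some actin genes, and some tubulin genes of the same family (alpha or beta), are close in sequence. Their features may therefore share signal, which was not tested.

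Across the 8 tubulin genes measured 4 rose (50%) and 0 fell in limma (6 and 0 at an unadjusted p under 0.05). Of all features 12.2% rose, and the median change was 0.28 in the list against 0.002 for all features. The other risers were alphaTub84D (0.90 ± 0.16) and alphaTub67C (0.35 ± 0.08), while betaTub97EF (-0.06) and gammaTub37C (0.01) did not pass. Without 0 h replicates 3 and 6, 3 of the 8 rose. Of 14 actin genes and actin-binding genes 6 rose (42.9%, against 12.2% of all features) and 2 fell (14.3%), around a median of 0.04. Act88F, the actin gene of flight muscle, was at -0.04 and did not pass, whereas cpb, the beta subunit of the actin capping protein, rose by 0.63 ± 0.13 (adjusted p 0.00218). Fim, which bundles actin filaments, ranged from -0.43 to 0.61 at 0 h and from -0.61 to -0.41 at 24 h, and fell by 0.64 ± 0.14 (adjusted p 0.00352). Its arrays overlapped because 0 h replicate 1 was at -0.43.

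Innexins form gap junctions, and 2 of their genes had changes of more than 1. The innexin gene ogre was between -1.68 and -0.28 at 0 h (median -0.37) and between -0.21 and 1.25 at 24 h (median 0.76), and its ratio rose by 1.27 ± 0.32 (adjusted p 0.00903). Inx3 changed by 1.28 ± 0.28 (adjusted p 0.00377), from a median of -0.84 to 0.34, with overlapping arrays. At 24 h replicates 2 and 6 were the lowest in both genes. Of the 5 innexin genes 2 rose, and zpg (-0.08), shakB (0.03) and Inx5 (0.17) did not pass. The call of ogre was lost without 0 h replicates 3 and 6 (0.88, adjusted p 0.0994) or without 24 h replicates 3 and 4 (1.06, adjusted p 0.0601).

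Sec61alpha, the pore subunit of the channel through which proteins enter the endoplasmic reticulum, was below 0 on all 6 arrays of 0 h (-1.60 to -0.14, median -1.01). At 24 h it ran up to 1.47, with a median of 0.46 and replicate 2 lowest at -0.00, and the rise was 1.47 ± 0.25 (adjusted p 0.000616). Of 20 genes of the translocon, the signal recognition particle and the chaperones of the endoplasmic reticulum, 10 rose and 2 fell, a share of 50% that rose against 12.2% of all features. Their median change was 0.32, and the median over the list was between -0.29 and -0.14 on every array of 0 h and between -0.06 and 0.19 on those of 24 h. Next in order of p came CaBP1, a protein disulphide isomerase (0.83 ± 0.16, adjusted p 0.00144), whose arrays ran from -1.10 to -0.48 at 0 h and from -0.10 to 0.38 at 24 h. TRAM, a membrane protein beside the channel, rose by 0.66 ± 0.13 (0.50 and 0.82 by its 2 features) and Srp68, a subunit of the signal recognition particle, by 0.60 ± 0.13. The list was not uniform: Sec61beta, a small subunit of the same channel, fell by 0.57 and Stt3A, an oligosaccharyl transferase subunit, fell by 0.26, both named here after their values were seen, and Hsc70-3, the main chaperone, was at 0.05. Taking pairs as a random block, 10 rose and 1 fell, without 0 h replicates 3 and 6 there were 6 and 1, and without 24 h replicates 3 and 4 there were 5 and 3.

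Aminoacyl-tRNA synthetases load amino acids onto tRNAs, 1 enzyme for each amino acid, with a separate set for mitochondria. TyrRS changed the most of the 22 genes measured, from a median of -0.57 (-0.74 to -0.06) at 0 h to 0.52 (0.21 to 0.83) at 24 h. Its rise of 0.99 ± 0.13 (adjusted p 0.000198) was a 1.99-fold shift. In the list 8 genes rose (36.4%, against 12.2% of all features) and 2 fell (9.09%, against 8.11%), with a median change of 0.20. GlnRS rose by 0.74 ± 0.15, AsnRS by 0.55 ± 0.12 and the mitochondrial PheRS-m by 0.34 ± 0.07, each with no overlap between the times. GlnRS was close to 0 on 0 h replicates 1 and 4 (-0.04 and 0.08) and between -0.88 and -0.52 on the other four. From the mitochondrial set PheRS-m was 1 of the 8 risers, while ValRS-m fell by 0.22. The random block for pairs left 7 risers and 0 fallers. Leaving out 0 h replicates 3 and 6 left 5 and 0, and leaving out 24 h replicates 3 and 4 left 6 and 0. The fall of ValRS-m thus did not pass in any of these settings.

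**Figure D3:**
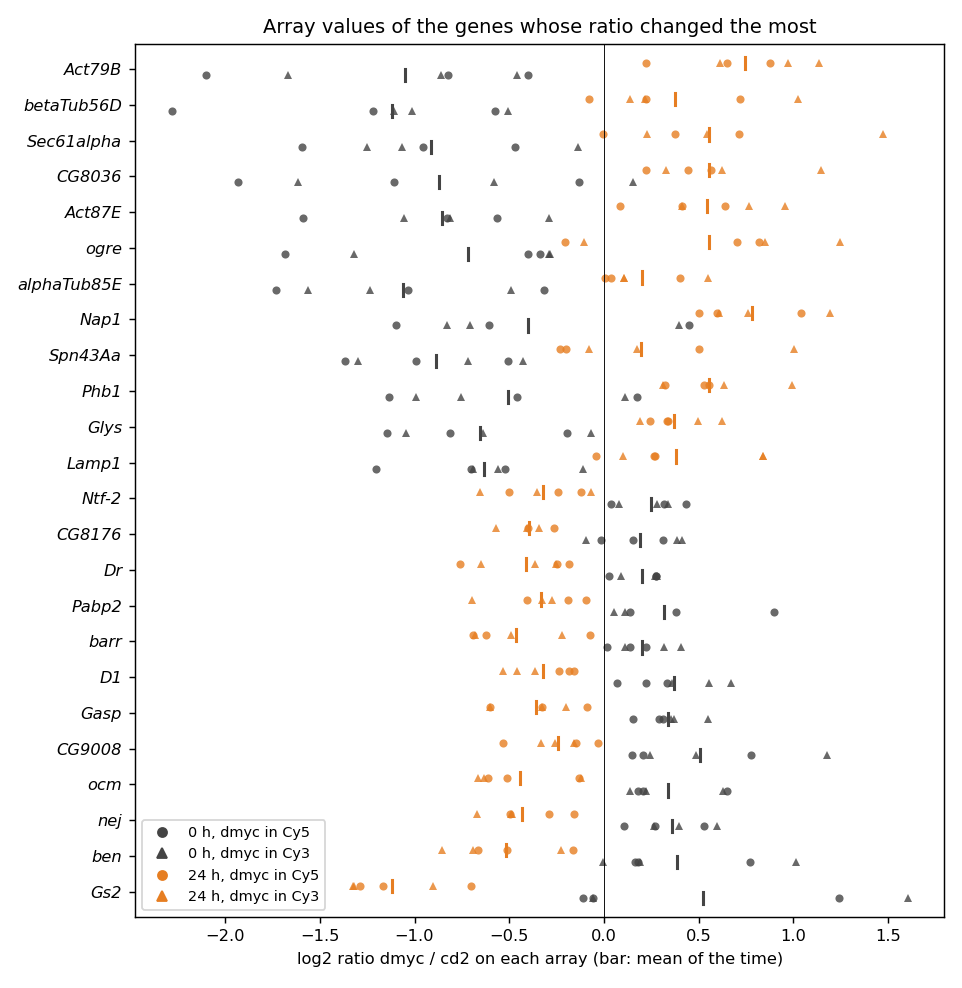
Log2 ratio of dmyc over cd2 on each array for the 12 named genes that rose the most and the 12 that fell the most among those with no overlap between the times; grey marks are 0 h, orange marks 24 h, circles dmyc in Cy5, triangles dmyc in Cy3 and bars the means. The risers go from negative to positive values, as for Act79B (-1.05 to 0.75 by the means), and the fallers the other way, with Gs2 the lowest at 24 h (-1.12).

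The remaining genes among the 12 largest rises had varied roles. Nap1, a histone chaperone, was between -1.10 and 0.45 at 0 h, where replicates 1 and 4 were above 0, and between 0.50 and 1.19 at 24 h, and rose by 1.18 ± 0.25 (adjusted p 0.00278). CG8036, annotated in the files by number only, rose by 1.42 ± 0.29, again with 0 h replicates 1 and 4 (-0.13 and 0.16) nearest to 0. Phb1, a prohibitin of the inner mitochondrial membrane, rose by 1.07 ± 0.20, and Glys, glycogen synthase, by 1.02 ± 0.19. Lamp1, a protein of the lysosomal membrane, rose by 1.01 ± 0.17 and was below 0 on 6 of 6 arrays at 0 h. Spn43Aa, a serpin, rose by 1.08 ± 0.22, from a median of -0.85 to 0.05, with 24 h replicates 3 and 4 (0.50 and 1.00) well above the other four. Serpins inhibit serine proteases, and of 20 measured 6 rose and 0 fell in limma (6 and 2 at an unadjusted p under 0.05). The risers were 30% of the list, against 12.2% of all features, around a median change of 0.03. Among the risers were Spn55B (0.39 ± 0.07), Spn77Ba (0.38 ± 0.07) and Spn28Dc (0.27 ± 0.05).

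Gs2, glutamine synthetase of the cytoplasm and in larvae a marker of glia, had the largest fall of these genes. At 0 h replicates 1 and 4 were at 1.24 and 1.60 and the other 3 measured arrays between -0.11 and -0.06, and at 24 h all 6 arrays were between -1.33 and -0.70 with a median of -1.23. Gs2 fell by 1.65 ± 0.39 (5 and 6 arrays, adjusted p 0.00557). The 0 h arrays with a high value belong to 1 pair, and without replicates 1 and 4 the change was -1.05 and did not pass (adjusted p 0.0576). Gs1, the mitochondrial glutamine synthetase, was at -0.15 and did not pass, nor did the other 8 of 9 neuron and glia markers, which lay between -0.17 and 0.17.

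The 12 largest falls included nej and several other nuclear proteins, grouped here after their values were seen. nej, the Drosophila CBP, a histone acetyltransferase that serves as coactivator, was above 0 on 6 of 6 arrays at 0 h (0.10 to 0.60, median 0.33) and below on 6 of 6 at 24 h (-0.67 to -0.16, median -0.49). It fell by 0.79 ± 0.11 (adjusted p 0.000241). D1, a DNA-binding protein of satellite repeats, fell by 0.69 ± 0.12, and barr, a condensin subunit, fell by 0.67 ± 0.10 (0.02 to 0.41 at 0 h, -0.69 to -0.07 at 24 h). Dr, a homeobox repressor, fell by 0.61 ± 0.12 and Ntf-2, a nuclear import factor, fell by 0.57 ± 0.10. In the CBP, Polycomb and trithorax list, 5 of 20 genes rose (25%, against 12.2% of all features) and 5 fell (25%, against 8.11%). The median change was -0.04. The fallers included osa, a subunit of the Brahma remodelling complex (-0.46 ± 0.11, adjusted p 0.00542), and the risers ash2, a subunit of a histone methyltransferase complex (0.31 ± 0.06).

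ben, an E2 ubiquitin-conjugating enzyme that acts with Traf6 upstream of JNK, fell by 0.91 ± 0.20 (adjusted p 0.00379), from a median of 0.19 (-0.01 to 1.01) to -0.59 (-0.85 to -0.17). At 0 h replicates 2 and 5 stood at 0.77 and 1.01 and the other four between -0.01 and 0.19. Gasp, a chitin-binding protein of the tracheal lining, fell by 0.70 ± 0.12 and did so in both of its features (-0.64 and -0.76). Pabp2, the nuclear poly(A)-binding protein, fell by 0.62 ± 0.20 with 5 arrays at 0 h. Its adjusted p rose above 0.05 when pairs were a random block (0.0558), without 0 h replicates 3 and 6 (0.102), without 24 h replicates 3 and 4 (0.0729), and without any of 0 h replicates 2, 3 and 6 or 24 h replicates 2, 3 and 6 left out singly (0.0538 to 0.103). ocm (-0.78 ± 0.13), CG9008 (-0.75 ± 0.17) and CG8176 (-0.59 ± 0.11) are given with no role here.

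Of 66 genes of oxidative phosphorylation, the respiratory chain and ATP synthase of mitochondria, 14 fell (21.2%, against 8.11% of all features) and 7 rose, with a median change of -0.06. COX5B, a subunit of cytochrome c oxidase, was between 0.33 and 0.53 at 0 h and between -0.34 and 0.28 at 24 h, and fell by 0.45 ± 0.09 (adjusted p 0.00247). ATPsynbeta, the catalytic subunit of ATP synthase, fell by 0.53 ± 0.11 (adjusted p 0.00278). In contrast ND-42 and ND-PDSW, subunits of complex I, rose by 0.68 ± 0.14 and 0.43 ± 0.08. The median over the list was between -0.09 and -0.02 on 24 h replicates 1, 3, 4 and 5, and was 0.20 and 0.12 on replicates 2 and 6, a pair. The random block for pairs left 6 fallers and 5 risers. Mitochondrial ribosomal proteins had 8 fallers and 5 risers among 62, with a median of -0.11, including mRpL38 (-0.36 ± 0.08, adjusted p 0.051 without 0 h replicates 3 and 6) and mRpL4 (0.38 ± 0.07). For this list the random block left 2 fallers and 3 risers, and without 24 h replicates 3 and 4 there were 1 and 4.

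Ribosome assembly and ribosomal protein genes had shares of risers near the 12.2% of all features. Of 46 nucleolar assembly factors 7 rose (15.2%) and 3 fell, with a median change of 0.08. CG6724, listed as an assembly factor, rose by 0.76 ± 0.13, Nle by 0.63 ± 0.12 and CG8545 by 0.70 ± 0.15, while NHP2, a core protein of small nucleolar particles, fell by 0.31 ± 0.07. In these 3 of the 7 risers 0 h replicates 1 and 4 were near 0, at most 0.08, and the other arrays of 0 h were between -0.81 and -0.21. The arrays of the remaining risers are not described. Of 9 genes for RNA polymerase I subunits and its initiation factors, 0 rose in limma (3 at an unadjusted p under 0.05) and 2 fell, the subunit gene Polr1H (-0.30 ± 0.06) and udd (-0.22 ± 0.05), around a median of 0.06. Of 36 cytoplasmic ribosomal protein genes 4 rose and 2 fell, with a median of -0.01.

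RpL3 had the largest change of the ribosomal protein genes, 0.93 ± 0.16 (adjusted p 0.000613), from a median of -0.63 to 0.48, but its 4 features split. They gave 1.91, 1.79, 0.01 and -0.02, and which transcripts each feature reads is not given in the files. The value for the gene is therefore uncertain. Translation factors had 8 risers (19.5%) and 1 faller of 41, around a median of 0.04. The random block for pairs left 5 risers and 0 fallers. Without 0 h replicates 3 and 6 there were 2 and 0, and without 24 h replicates 3 and 4 there were 3 and 0. eIF3d1, a subunit of initiation factor 3, rose by 0.86 ± 0.15 (adjusted p 0.000809) with no overlap, and eEF1alpha2, an elongation factor that brings tRNA to the ribosome, by 1.17 ± 0.27 with overlap. For eEF1alpha2 the 0 h arrays were split, with replicates 1 and 4 at -0.09 and 0.14 and the others between -1.32 and -0.93. Without 0 h replicates 3 and 6 it was 0.93 and did not pass (adjusted p 0.0561).

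fwe was lower in dmyc discs on 6 of 6 arrays at 0 h (-0.61 to -0.33, median -0.49). At 24 h it was measured on 5 arrays, at 0.38, -0.03, 0.49, 0.31 and -0.14 on replicates 1, 2, 3, 5 and 6, so that replicates 2 and 6, which form a pair, were below 0 and the other 3 above. The change was 0.66 ± 0.11 (adjusted p 0.000658, or 0.00439 with the random block for pairs), with no overlap between the times. For fwe there is 1 feature, so its isoforms are not resolved. SPARC was tightly grouped at 0 h (-0.80 to -0.58) and spread around 0 at 24 h (-0.17 to 0.42, median -0.02), where replicates 1 and 5, a pair, stood at 0.37 and 0.42. Its rise was 0.72 ± 0.11 (adjusted p 0.000338). For azot the 24 h arrays ran from -0.48 to 0.70 and took in all those of 0 h (-0.24 to 0.14). The difference of 0.06 ± 0.18 did not pass (adjusted p 0.84), and the high arrays were again replicates 1 and 5 (0.70 and 0.47). fwe and SPARC passed without 0 h replicates 3 and 6 and also without 24 h replicates 3 and 4, with adjusted p between 0.00126 and 0.00527.

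**Figure D4:**
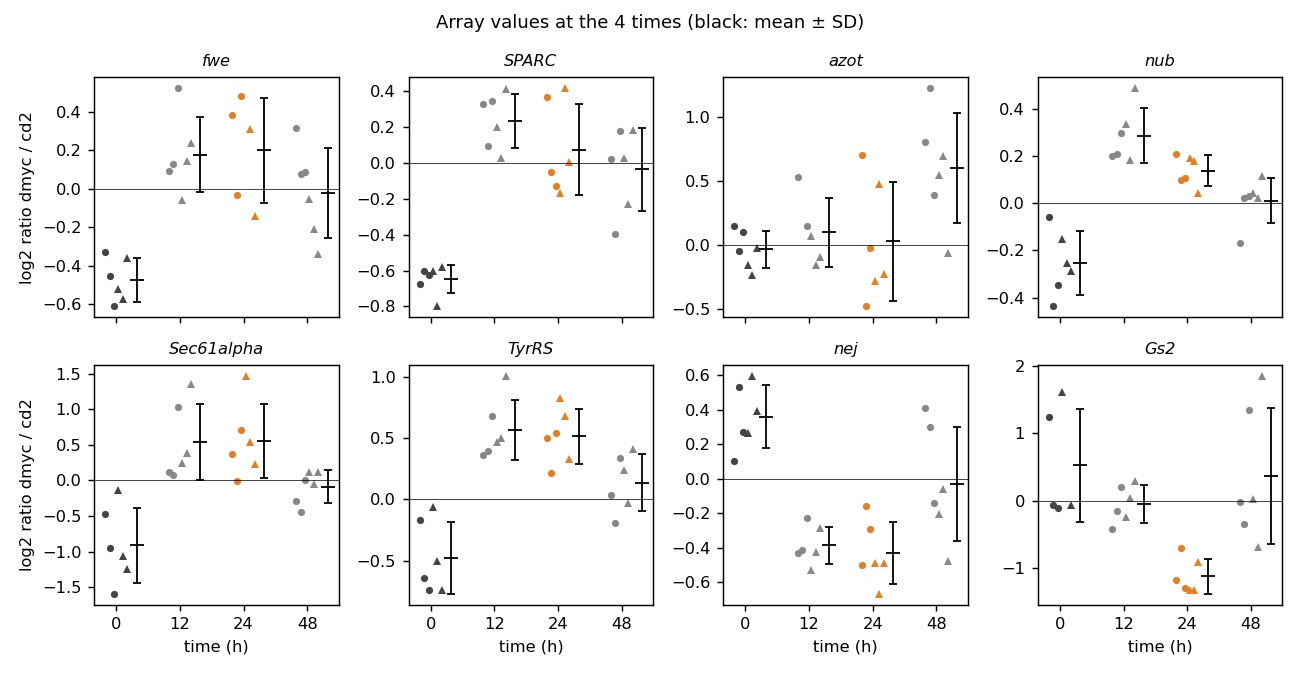
Log2 ratio of dmyc over cd2 on each array (circles dmyc in Cy5, triangles dmyc in Cy3) by time in hours for 8 genes, with black bars for the mean ± SD of the 6 arrays or fewer. The 0 h arrays (dark grey) lie below those of 24 h (orange) for fwe, SPARC, nub, Sec61alpha and TyrRS, above them for nej and Gs2, and within their range for azot.

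Among regulators of cell death, the list of 15 had 4 risers (26.7%, against 12.2% of all features) and 2 fallers (13.3%). The median change was -0.04. Bruce, an inhibitor of apoptosis, rose by 0.43 ± 0.09, and wgn, a receptor of the TNF ligand Eiger, by 0.24 ± 0.04, while Diap2, another inhibitor, fell by 0.27 ± 0.07 and the effector caspase gene Dcp-1 fell by 0.33 ± 0.08. Diap2 and Dcp-1 did not pass without 0 h replicates 3 and 6 (adjusted p 0.0768 and 0.0748) or without 24 h replicates 1 and 5 (0.0544 and 0.0762), and Dcp-1 did not without 0 h replicates 2 and 5 (-0.24, adjusted p 0.0875). The JNK list of 14 had 3 risers and 2 fallers, ben among the latter, and a median of 0.04. In it Traf6, an adaptor, fell by 0.34 ± 0.07 with no overlap and kay, the Fos homologue, rose by 0.32 ± 0.07. puc, a phosphatase that JNK signalling induces, was at -0.02 and did not pass. The proapoptotic genes grim and skl were at -0.04 and -0.05 and did not pass.

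Of 18 autophagy genes 5 rose and 0 fell in limma (7 and 1 at an unadjusted p under 0.05), around a median of 0.14. The risers were 27.8% of the list, against 12.2% of all features. Atg9, the membrane protein of forming autophagosomes, was between -0.29 and 0.10 at 0 h and between 0.17 and 0.34 at 24 h, and rose by 0.34 ± 0.06 (adjusted p 0.000465). Atg1, the kinase that starts the process, rose by 0.35 ± 0.06 and Atg3, a conjugating enzyme, by 0.18 ± 0.05. The random block for pairs left 2 of the 18, and Atg3 was also lost without 0 h replicates 2 and 5 or 24 h replicates 1 and 5 (adjusted p 0.0585 and 0.0531). Antioxidant genes included Trxr1, thioredoxin reductase, which rose by 0.55 ± 0.07 (adjusted p 0.00018) from between -0.32 and -0.08 to between 0.14 and 0.46, and the glutathione transferase gene GstD4 (0.73 ± 0.13). Their list as a whole had 5 risers and 3 fallers of 42, near the background. Proteasome subunits moved both ways, with 9 risers (Prosalpha7 at 0.58 ± 0.13, Rpt2 at 0.41 ± 0.09) and 7 fallers of 34. These were 26.5% and 20.6% of the list, against 12.2% and 8.11% of all features. In the fit with the random block 8 rose and 1 fell.

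Heat shock proteins and cochaperones had 5 risers (27.8%, against 12.2% of all features) and 2 fallers (11.1%) of 18, with a median of 0.07. Hsp26 rose by 0.70 ± 0.16, DnaJ-1 by 0.70 ± 0.19, Hsp110 by 0.58 ± 0.16 and the mitochondrial Hsp60A by 0.40 ± 0.09. DnaJ-1 was narrow at 24 h (0.17 to 0.37) and at 0 h had replicates 3 and 6 at -0.74 and -0.83 and the others between -0.29 and -0.24. Without 0 h replicates 3 and 6, 1 of the 18 rose, and DnaJ-1, Hsp26 and Hsp110 had adjusted p of 0.126, 0.0547 and 0.17. Hsp110 was also lost without 0 h replicate 3 or 6 alone (0.0545 and 0.0524), the 0 h pair of replicates 2 and 5 (0.0559) or the 24 h pair of 3 and 4 (0.0884), and DnaJ-1 without 24 h replicates 1 and 5 (0.0567).

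Genes of growth and patterning were mixed. Of 25 cyclins, Cdks and E2F factors 7 rose (28%, against 12.2% of all features) and 1 fell (4%), around a median of 0.06. E2f2, a repressor of S phase genes, rose by 0.62 ± 0.12 (4 arrays at 24 h) and the mitotic kinase gene aurB by 0.44 ± 0.10. Cdk2, the kinase of S phase entry, fell by 0.44 ± 0.08. A random block for pairs left 2 risers and 1 faller, as did leaving out 0 h replicates 3 and 6 or 24 h replicates 3 and 4. DNA replication genes had 1 riser and 3 fallers of 31, among them RPA1 (-0.32 ± 0.07) and PCNA (-0.36 ± 0.11). The call of PCNA was lost with the random block (adjusted p 0.113) and without any of 0 h replicates 1, 3 and 6 or 24 h replicates 1, 3, 4 and 5 (0.0509 to 0.0854). In the Hippo pathway, which limits disc growth, fj, mats and yki rose (0.42 ± 0.10, 0.33 ± 0.08 and 0.37 ± 0.12) and 0 of the 11 genes fell in limma (3 at an unadjusted p under 0.05). yki was lost with the random block (0.0874) and without any of 0 h replicates 2, 3 and 5 or 24 h replicates 3 and 6 (0.0518 to 0.0667), and fj without 0 h replicates 3 and 6 together (0.0538). Of 25 wing pouch and compartment genes 3 rose and 2 fell. nub, a POU factor of the pouch, went from a median of -0.27 to 0.14 and rose by 0.39 ± 0.06 (adjusted p 0.000387), with all arrays below 0 at the first time and above at the second. vg, the selector gene of the wing, went the other way, from 0.30 (0.08 to 0.51) to -0.24 (-0.31 to -0.11), and fell by 0.53 ± 0.11 (adjusted p 0.00299).

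The ecdysone-inducible gene ImpE2 rose by 1.69 ± 0.41 (adjusted p 0.00691), but at 24 h only replicates 3 and 4 were high (1.60 and 1.78), with the other four between -0.17 and -0.03. At 0 h it was lowest on replicates 3 and 6 (-2.20 and -2.33). Without 0 h replicates 3 and 6 its change was 1.16 (adjusted p 0.0808), and without 24 h replicates 3 and 4 it was 1.09 (adjusted p 0.0633). Of 21 genes of the ecdysone response 4 rose and 0 fell in limma (6 and 2 at an unadjusted p under 0.05), with a median of 0.10, and the hormone receptor genes EcR (0.16) and usp (0.10) did not pass. ImpL2, a secreted inhibitor of insulin signalling, rose by 0.38 ± 0.08 with no overlap.

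Other pathways held changes in both directions. Of 13 genes of the Dpp pathway 3 rose and 3 fell: Med, a Smad that carries the signal to the nucleus, fell by 0.49 ± 0.11, and gbb, a BMP ligand, rose by 0.41 ± 0.11. The call of gbb was lost without 0 h replicates 2 and 5 (0.37, adjusted p 0.0554) or 3 and 6 (0.34, adjusted p 0.0646). Of 10 Wingless pathway genes and targets 3 rose, sc (0.33 ± 0.07), wls (0.33 ± 0.10) and nkd (0.27 ± 0.09), and vg fell, around a median of 0.17. sc, a proneural factor, was below 0 on 6 of 6 arrays at 0 h (-0.29 to -0.02), and the calls of wls, which carries Wingless to the cell surface, and nkd, an inhibitor of the pathway, were lost with the random block (0.0566 and 0.103). Both were also lost without single arrays, wls without 0 h replicate 3 or 5 or 24 h replicate 3 (0.0527 to 0.0661) and nkd without 0 h replicate 3 or 6 or 24 h replicate 1, 3 or 5 (0.0664 to 0.103). In the insulin and TOR list of 14 genes 2 rose and 2 fell, and S6k, the kinase of ribosomal protein S6, was at -0.34 ± 0.09. S6k did not pass without the 0 h pair of replicates 2 and 5 (-0.20, adjusted p 0.115) or of 3 and 6 (0.0597), or the 24 h pair of 3 and 4 (0.0733). Among 15 DNA damage genes 3 rose and 2 fell, with His2Av, the histone variant phosphorylated at breaks, at -0.56 ± 0.12. Of 11 glycolytic enzymes only Pgk passed, which rose by 0.56 ± 0.13 from between -0.87 and -0.18 to between -0.03 and 0.27, and was lost without 0 h replicates 2 and 5 (0.40, adjusted p 0.0618). Basement membrane and matrix genes had 5 risers and 3 fallers of 20, SPARC and ImpE2 among the risers and LanA, a laminin subunit, among the fallers (-0.45 ± 0.12). In the list of mRNA export and decay 1 rose and 4 fell of 21, with Pop2, a deadenylase, at -0.40 ± 0.09. Cuticle proteins (5 up and 4 down of 97) and cytochrome P450 genes (1 and 3 of 60) had a smaller share of risers than the 12.2% of all features.

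**Figure D5:**
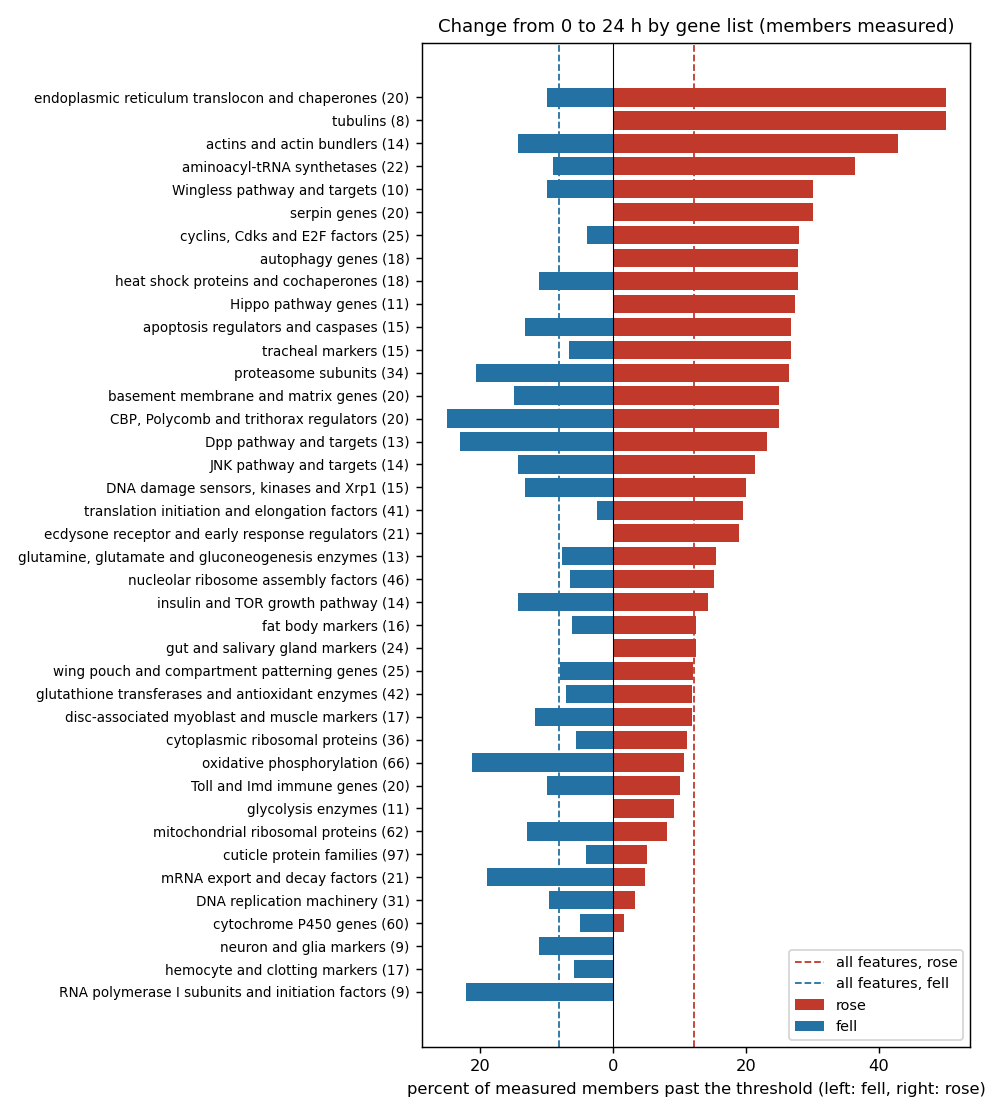
Percent of the measured members of each gene list with 8 or more members (number in brackets) whose ratio rose (red, to the right) or fell (blue, to the left) from 0 to 24 h; dashed lines give the 12.2% and 8.11% of all features. The lists of the endoplasmic reticulum and of tubulins reach 50% risers, while cytoplasmic ribosomal proteins lie near both lines.

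Markers of tissues that can adhere to a dissected disc varied by pair. Of 24 gut and salivary gland markers 3 rose and 0 fell in limma (5 and 0 at an unadjusted p under 0.05), and the list's median per array was between -0.01 and 0.07 at 0 h, 0.46 and 0.24 on 24 h replicates 2 and 6, and between -0.07 and 0.04 on the other four. Changes of the members of this list ran from -1.68, which did not pass, to 1.36, and 16 of the 24 were above 0. The protease gene Jon74E was at 1.51 and 1.54 on replicates 2 and 6 and at 0.05 and 0.08 on the other arrays measured at 24 h. Its rise of 0.90 became 0.15 without replicates 2 and 6 (adjusted p 0.636), and was also lost without either of them alone (0.65 and 0.63, adjusted p 0.0705 and 0.117). The 3 lysozyme genes, LysS, LysE and LysX, differed by 1.36, 1.02 and 0.66 and 0 of them passed in limma (2 at an unadjusted p under 0.05). Their median was 2.59 and 2.26 on 24 h replicates 2 and 6 and between -0.04 and 0.10 on the other four. Of 16 fat body markers 2 rose and 1 fell, with array medians from -0.27 to 0.12 at 0 h, of 0.32 and 0.43 on 24 h replicates 1 and 5, and down to -0.10 on the rest. Replicates 1 and 5 are also the arrays on which SPARC and azot were highest. Of 15 tracheal markers 4 rose (26.7%, against 12.2% of all features) and 1 fell (6.67%), with a median of 0.15. verm, a chitin deacetylase of tracheal tubes, rose by 0.76 ± 0.12 in each of its 3 features (0.75 to 0.78), and sinu, a claudin, by 0.51 ± 0.12 (0.35, adjusted p 0.074, without 0 h replicates 3 and 6), whereas Gasp fell. The array medians of the tracheal list ran from -0.15 to 0.03 at 0 h and from -0.06 to 0.14 at 24 h. Of 17 myoblast and muscle markers 2 rose, Act79B and Act87E, and 2 fell, sls (-0.34 ± 0.06) and rols (-0.15 ± 0.05; adjusted p 0.176 with the random block and 0.0512 to 0.0882 without any of 0 h replicates 2 to 6 or 24 h replicates 1, 4, 5 and 6). The myoblast genes twi (0.12), zfh1 (0.13) and Him (0.10) did not pass. Hemocyte markers had 0 risers in limma (0 at an unadjusted p under 0.05) and 1 faller of 17, PPO1 (-0.21 ± 0.06, adjusted p 0.0999 with the random block). It was also lost without the 0 h pair of replicates 1 and 4 (-0.13, adjusted p 0.0699) or of 3 and 6 (0.051), and without the 24 h pair of 2 and 6 (0.0547) or of 3 and 4 (0.0857). The part of adhering tissue in the changes above was not tested.

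The change by 24 h was not told apart from that by 12 h for any feature: between 12 and 24 h 0 of 10622 features passed in limma (0%), and 762 did at an unadjusted p under 0.05. Sec61alpha had a mean of 0.54 at 12 h and 0.56 at 24 h, nej of -0.39 and -0.43. Between 24 and 48 h 10 features passed (0.0941%), 6 up (0.0565%) and 4 down (0.0377%). Among the genes described above these were LysS, Trxr1, Ntf-2 and puc. The ratio of LysS fell by 2.97 ± 0.58 (adjusted p 0.0492) and that of Trxr1 by 0.34 ± 0.07 (adjusted p 0.0492). Ntf-2 rose by 0.50 ± 0.10 (adjusted p 0.0492). puc, at -0.02 between 0 and 24 h, rose in the later interval by 0.39 ± 0.05 (adjusted p 0.000708) and is named after its value was seen. Gs2 had a mean of -0.05 at 12 h, -1.12 at 24 h and 0.37 at 48 h, and neither step passed (adjusted p 0.539 and 0.0934).

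Of 998 genes with several features, 20 had features called in opposite directions between 0 and 24 h. For sls the 2 features gave -0.60 and -0.08, so the value of the gene rests on 1 of them. The features of rols gave -0.12, -0.02 and -0.31, and only the last passed in limma with features not averaged (adjusted p 0.00505). ImpE3, an ecdysone-inducible gene that rose by 0.53 ± 0.14, had 1 feature at 1.12 and the other at -0.06. It lost its call without 0 h replicates 1 and 4 (0.39, adjusted p 0.0556) or 24 h replicates 3 and 4 (0.28, adjusted p 0.0755).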

How the data were processed

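RNA was amplified linearly and labelled with Cy5 or Cy3, per the labels' protocols, and each array was deposited as log ratios of its 2 channels, which were taken as log2 values. For the log base, scanner, background correction and normalization, no statement was given in the sources used here. Array medians lay between -0.01 and 0.008, and 1.96% of values were missing on the 12 arrays. With no spot intensities in use, dim or saturated spots could not be identified, and 0 columns of values were left unused. Of 12359 features, 169 were left out as inferred control spots, since they lie at positions of the print block of 324 where no feature names a gene. By the platform annotation 10288 features name 1 gene, 56 several and 2015 none, and 9991 of the 10288 matched RefSeq, used for names and, in the closing section, for gene span and chromosome, with no coordinates printed since the files name no build.

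Arrays were centred on their medians and the features of a gene averaged (1032 of 8969 genes have several). Features with 4 or more values at each time were tested. limma 3.58.1 (R 4.3.3) was fitted with time and dye over all 24 arrays, with Benjamini-Hochberg adjustment over 10622 features and a threshold of 0.05. Dye-swap pairs were matched one to one by correlation within a time, and their consensus correlation as a random block (duplicateCorrelation) was 0.444. The fit was tested on simulated data with known changes, with noise drawn independently for each array. The simulation held no correlation within pairs, so it cannot show how the pairs affect the calls.

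Named genes were the 12 largest rises and falls without overlap and with at least 5 values a time, up to 4 members of lowest p past the threshold in each of 44 lists, and fwe, SPARC and azot. In the lists 11 synonym matches to other genes were removed. The members, lists and tests were chosen with earlier results of these data known. Samples were grouped by their titles. Alternatives covered centring, scaling, quantile normalization, missing values, dye, pairing, array weights, robust variance and left-out arrays. Sign reversal of pairs was added after seeing the data. Myc is not reported here.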

Additional observations from a re-analysis of the deposited data

Results flagged for a closer look

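The ratio differed between 0 and 24 h for 2160 features and between 24 and 48 h for 10 by limma's test of the difference. Trxr1 (-0.34) and Ntf-2 (0.50) are named genes that passed in the later interval too, each opposite in sign to its change between 0 and 24 h. The 24 h arrays enter both differences with opposite sign, which in itself favours opposite changes.

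In 10 of 306 groups of arrays of named genes, 1 array stood far from the rest by Dixon's test, which flags about 1 group in 20 by chance. At 24 h, replicate 3 was the far array for udd (-0.26, the others -0.12 to -0.05), fj (0.43, the others 0.03 to 0.08) and Atg1 (0.46, the others 0.02 to 0.16). Replicate 4 of 24 h was far for ND-PDSW (0.17, the others 0.34 to 0.41), S6k (-0.36, the others -0.13 to -0.06) and Pgk (0.27, the others -0.03 to 0.06). At 0 h, replicate 1 was far for PheRS-m (0.03, the others -0.29 to -0.19), Trxr1 (-0.08, the others -0.32 to -0.23) and Brca2 (-0.51, the others -0.27 to -0.15), and replicate 5 for Gnf1 (0.05, the others 0.19 to 0.27). For PheRS-m, Trxr1, Pgk, fj, Atg1, udd and ND-PDSW the arrays of the other time still did not overlap with these.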

How the results depend on the processing

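Between 0 and 24 h the 2160 features became 3312 with array weights, 920 with pairs as a random block, 2 on the arrays with dmyc in Cy3 alone and 0 on those with dmyc in Cy5 alone (1941 at an unadjusted p under 0.05). Averaging pairs gave 0 (2326), reversing the sign of 0 h replicates 3 and 6 gave 0 (1118), and reversing that of 24 h replicates 3 and 4 gave 12. The count was 1067 without 0 h replicates 2 and 5, 739 without 0 h replicates 3 and 6, 1230 without 24 h replicates 3 and 4, and 1546 to 2674 without the other pairs. Leaving out 1 array gave 1400 (0 h replicate 3) to 2442 (0 h replicate 1). The other settings (centring, scaling, quantile normalization, missing values, features unaveraged or named alone, no dye term, robust variance, the compared arrays alone) gave 1811 to 2416. The replicate block gave 2024 (1229 rises, 795 falls), but equal numbers do not pair the arrays: deviations of same-numbered arrays correlated at 0.25, 0, -0.36, -0.16, -0.34 and 0.17. The cause of these shifts was not tested. Where arrays were left out or averaged, fewer values also entered the fit.

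Between 12 and 24 h the count of 0 became 29 with 24 h replicates 3 and 4 reversed, 3 without 12 h replicates 2 and 5 and 6 without 24 h replicates 3 and 4, and stayed at 0 in the other settings run. Between 24 and 48 h the 10 became 1 with the compared arrays alone, 5 with complete features alone, 3 with no dye term, 2 when pairs were a random block, and 6 with 24 h replicates 3 and 4 reversed. It was 0 on either dye orientation alone (496 with dmyc in Cy3 and 784 with it in Cy5 at an unadjusted p under 0.05) and 0 after averaging pairs (578). Without pairs it was 44 (24 h replicates 1 and 5), 58 (24 h replicates 2 and 6), 6 (48 h replicates 1 and 4), 2 (48 h replicates 2 and 5) and 310 (48 h replicates 3 and 6), and leaving out 1 array gave 3 to 96.

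Of 153 named genes 152 passed between 0 and 24 h, and 0 of the 153 had a called change that reversed in the 36 alternatives. Apart from fwe, SPARC and azot, the genes were named because they passed on these same arrays. Both counts therefore follow in part from that choice and do not measure how stable the calls are. The random block ended the call of 39 genes, averaging pairs that of 152, and leaving out 0 h replicates 3 and 6 that of 54. The replicate block ended 4.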

Other observations

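Genes were split into 5 classes of equal size by the length of their RefSeq gene span. The share that rose between 0 and 24 h was 6.3% in the class of the shortest genes, 16.2%, 18.1% and 16.2% in the next classes and 8.89% in that of the longest, with 1698 to 1700 genes in each. The share that fell ran from 8.89% in the shortest to 7% in the longest. By chromosome, 15.9% of 1406 genes on X rose and 6.19% fell, against 11.3% to 13.5% and 6.84% to 8.62% on the major autosome arms. Features that name no gene or several had 173 rises and 191 falls among 1847, and named genes had 1126 and 670 among 8775. These shares are descriptions, and no test was made of them.

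Of the 10 features that passed between 24 and 48 h, 9 name a gene, all given here after their values were seen. Ttd14 went from -0.00 to 0.51 (change 0.51 ± 0.06, adjusted p 6.55e-05), and l(2)k09022 rose by 0.50 ± 0.08. Polr1B, a subunit of RNA polymerase I, rose by 0.33 ± 0.06 and CG3735 by 0.32 ± 0.06, while CG5746 fell by 0.30 ± 0.06. The lysozyme gene LysS fell by 2.97 ± 0.58, from 1.32 ± 1.51 to -1.65 ± 1.41 (mean ± SD), so its spread within each time was over 1 on the log2 scale.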
